A study of Mus musculus with 46 samples.

Results

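The enzymes of glycolysis and the genes that cells switch on when oxygen is short were followed through mouse mammary tumors of 8 engineered models and through normal gland. The set was a list of 38 gene symbols, of which 33 had a probe set of their own on the array and were tested among 9329 genes. For each gene the probe set with the highest mean over the 46 arrays was used, whatever its pattern. Gpi1, Eno1, Pfkfb4 and Ankrd37 had no probe set in the annotation used here, and Gapdh had only a probe set that it shares with other loci, so these 5 genes have no value below. All levels and differences are on the log2 scale of the deposited GC-RMA values, where a difference of 1 is a doubling.

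RNA came from 41 primary tumors of female mice and 5 normal glands, with 1 array each, and the study asked how expression relates to the initiating lesion and to tumor lineage. Basal-type tumors were those of the C3(1)/Tag (C3TAg in the labels, n = 5), p53-/- transplant (p53-/-, n = 7) and BRCA1-/-p53+/- (Brca1-/-p53+/-, n = 5) models. Luminal-type tumors were those of the MMTV-H-Ras (MMTV-Hras, n = 5), MMTV-Her2/neu (MMTV-H2N, n = 5), MMTV-c-Myc (MMTV-C-Myc, n = 4), MMTV-PymT (n = 6) and MMTV-Wnt1 (MMTV-Wnt, n = 4) models. C3(1)/Tag mice carry SV40 T antigens behind the C3(1) promoter. In the p53-/- and BRCA1-/-p53+/- models floxed alleles were deleted by a cre transgene under the MMTV promoter, and the p53-/- tumors grew from transplanted tissue. The other 5 models express their oncogene from the MMTV promoter, which is active in mammary epithelium and also in some other tissues. Every group was of strain FVB except the p53-/- tumors, which were Balb/C, and the BRCA1-/-p53+/- tumors, which were 129B6/FVB. Strain and class were therefore partly confounded. The glands came from pregnant FVB mice, so a tumor was compared with a gland preparing for lactation, and the sources used here give no ages of the mice.

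Glycolysis splits glucose into pyruvate in the cytosol, and pyruvate is then either reduced to lactate or oxidised in mitochondria after pyruvate dehydrogenase. When oxygen falls, the prolyl hydroxylases of the EGLN family stop marking the alpha subunit of hypoxia-inducible factor (HIF) for degradation, and HIF raises transcription of glycolytic enzymes, pyruvate dehydrogenase kinases, collagen hydroxylases and angiogenic factors. Many tumors have high glycolytic rates even where oxygen is present.

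HIF binds DNA at the core letters ACGTG or GCGTG, and the upstream sequences of 6 members that recur in the comparisons below are shown as examples of windows with 2 to 4 matches. Each is the part of the window of 250 bases before the RefSeq start that runs from just upstream of the first match to the base before the start, 5′ to 3′ on the strand of the gene, in build GRCm38.p6. Capitals mark every match to ACGTG or GCGTG on either strand, so CACGT and CACGC are the reverse-strand forms, and overlapping matches count once.
Ldha, chr7:46845649-46845803, plus strand: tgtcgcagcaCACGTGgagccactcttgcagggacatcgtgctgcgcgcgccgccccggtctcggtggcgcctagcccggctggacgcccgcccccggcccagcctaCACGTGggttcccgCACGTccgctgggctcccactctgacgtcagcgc
Pgk1, chrX:106186940-106187099, plus strand: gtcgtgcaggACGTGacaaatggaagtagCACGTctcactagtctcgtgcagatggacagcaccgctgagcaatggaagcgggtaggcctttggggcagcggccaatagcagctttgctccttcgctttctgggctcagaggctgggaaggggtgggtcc
P4ha1, chr10:59323123-59323295, plus strand: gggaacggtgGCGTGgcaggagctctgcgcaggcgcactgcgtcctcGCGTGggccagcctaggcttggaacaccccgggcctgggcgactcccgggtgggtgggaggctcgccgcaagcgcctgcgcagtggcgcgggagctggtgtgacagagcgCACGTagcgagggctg
P4ha2, chr11:54100807-54100923, plus strand: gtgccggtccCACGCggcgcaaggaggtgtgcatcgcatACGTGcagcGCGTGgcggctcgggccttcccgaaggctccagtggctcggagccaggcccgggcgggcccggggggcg
Pdk3, chrX:93832151-93832323, minus strand: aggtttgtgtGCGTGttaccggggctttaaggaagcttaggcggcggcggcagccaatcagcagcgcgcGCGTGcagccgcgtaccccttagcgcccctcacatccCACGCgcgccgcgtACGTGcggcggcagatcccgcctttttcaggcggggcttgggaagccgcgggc
Bnip3, chr7:138909507-138909633, minus strand: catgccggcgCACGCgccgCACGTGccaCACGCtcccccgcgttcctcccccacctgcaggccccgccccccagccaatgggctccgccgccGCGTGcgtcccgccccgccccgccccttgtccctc
The Pdk3 and Bnip3 stretches each held 4 matches, those of Ldha, P4ha1 and P4ha2 held 3, and that of Pgk1 held 2. Eno2, Mif, Tpi1 and Gpi1 had no match in their windows, and a second Ldha window had 1. RefSeq promoter entries existed for 35 of the 38 listed genes, and Lox, Plod2 and Ndrg1 had none in the table. At least 1 match lay in 39 of the 49 member windows (79.6%), against 12679 of 32851 windows of all promoters (38.6%). Counted by gene, 31 of 35 members (88.6%) and 41.5% of all 27025 genes had a window with a match. The members were listed as glycolysis and hypoxia response genes, and the windows of all promoters were not matched to theirs in base composition. The shares are therefore a description and no evidence of HIF control. A match is a description of the letters and was not tested as a binding site.

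Array medians lay between 6.48 and 7.48, and the number of arrays per group limits the precision of every value. Values after ± are SDs over the arrays of a group, and SEs are named as such. The tumor BRCA1-/-p53+/- 2 stood apart from its 4 model mates in muscle, adipocyte and proliferation genes. Its score for 17 skeletal muscle genes was 2.68, its score for 9 adipocyte genes was 2.63 and its score for 23 proliferation genes was -2.34, where a score is the mean gene-wise z over all arrays. Normal glands had scores of 1.63 ± 0.93, 2.07 ± 0.20 and -1.64 ± 0.32 for the same lists. Results that rest on BRCA1-/-p53+/- 2 are given with and without it. Its model mates were not alike either. The luminal epithelial score was -1.875 in BRCA1-/-p53+/- 3 and -2.719 in BRCA1-/-p53+/- 4. It was -0.054 in BRCA1-/-p53+/- 1 and 0.215 in BRCA1-/-p53+/- 5. MMTV-Wnt1 3 had -1.739. These other tumors were left out only singly.

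Basal-type tumors leaned towards higher levels of these transcripts. Of the 33 members 15 were higher and 4 lower (limma, Benjamini-Hochberg adjusted p under 0.05), while 15.9% of all genes tested were higher and 12% lower. The median difference over the members was 0.50, and over all genes it was 0.06. The largest increases were those of the neuronal enolase Eno2 (7.12-fold), the collagen prolyl hydroxylase P4ha2 (7.01-fold) and the collagen cross-linking enzyme Lox (5.15-fold). The 4 genes that were lower were Egln3, Aldoc, Pfkl and Hk1. This test treated the 41 tumors as 2 pools, although class is a property of the model. Class p-values below are those of this pooled test unless another fit is named. With the model as a random block, which lets tumors of a model vary together, no member passed in limma, with a lowest adjusted p of 0.101 and 12 members at an unadjusted p under 0.05, and only 49 of all genes passed instead of 2607. In FVB arrays alone, where C3(1)/Tag is the single basal-type model, 12 members passed, 6 higher and 6 lower, where 18.5% of all genes were higher and 8.58% lower.

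Against normal gland the members went both ways. Taking the equal-weighted mean of the 8 models, 11 members were higher, where 24.2% of all genes tested were higher, and 10 members were lower, where 17.1% of all genes were. The members' median difference was 0.31 beside 0.20 for all genes. Plod2, Pdk3 and P4ha1 rose by 36.6-fold, 13.6-fold and 10.6-fold, and Pfkfb3, Bnip3 and Hk2 were lower by 6.34-fold, 4.87-fold and 3.19-fold. The lowest glands were at 3.15 for Plod2, 2.99 for Pdk3 and 3.35 for P4ha1. Low GC-RMA values are pulled towards a floor, so the folds of these risers depend on that floor. Centring each array on its median lowered the all-gene median difference by 0.20, and 10 members were then higher and 10 lower. All-gene calls against gland went from 2258 higher and 1597 lower to 1719 and 2058 under this centring, and those between the classes from 1485 and 1122 to 1257 and 1488. Among the 8 tumor models 28 of 33 members differed by the moderated F test, a share to be read against 74.5% of all genes.

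**Figure D1:**
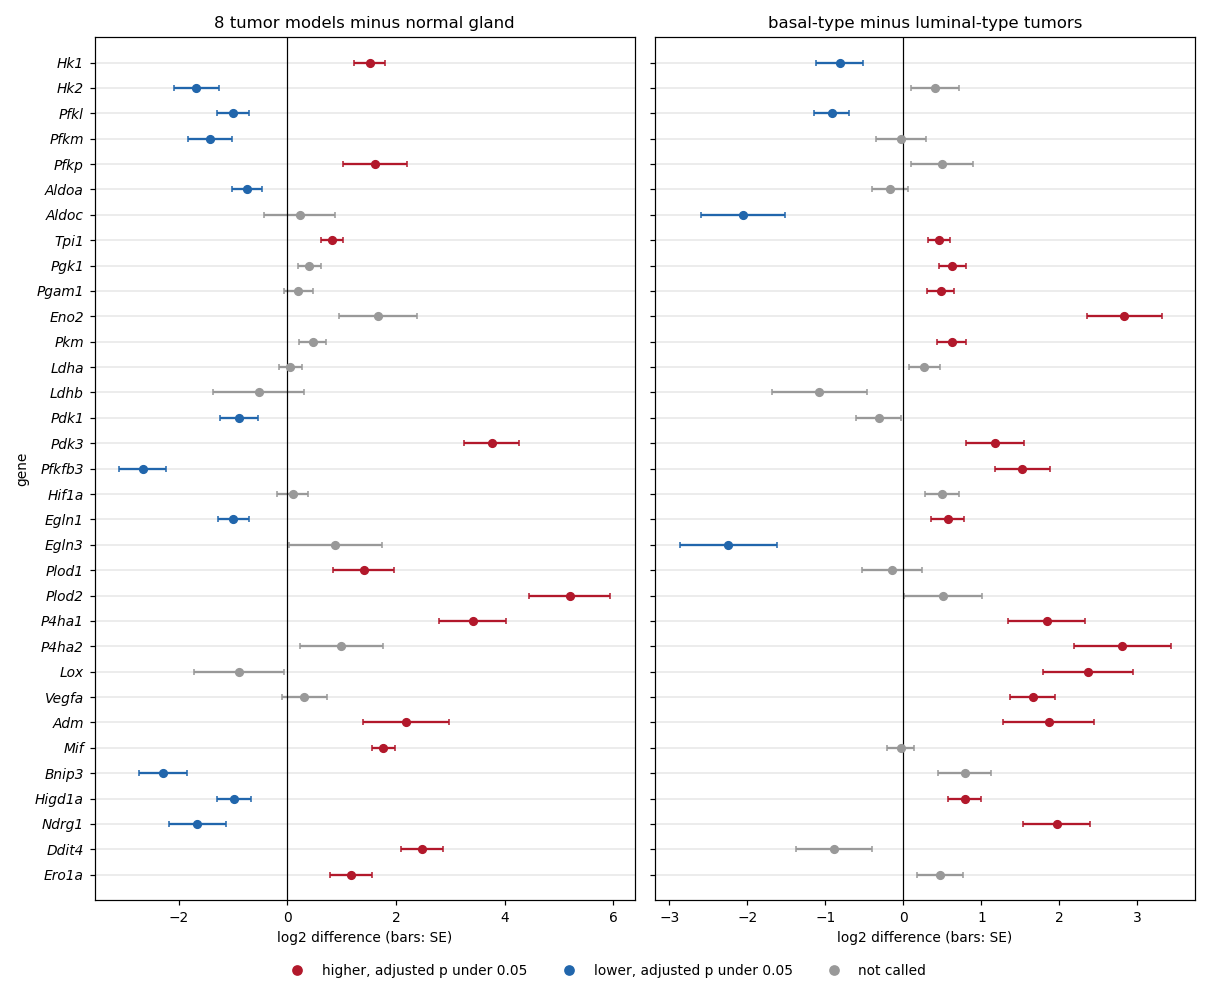
Log2 differences of the 33 members with SE bars, for tumors minus normal gland and for basal-type minus luminal-type tumors, coloured by whether the difference passed an adjusted p of 0.05. Plod2 had the largest difference from gland at 5.20, and Eno2 the largest between the classes at 2.83.

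**Figure D2:**
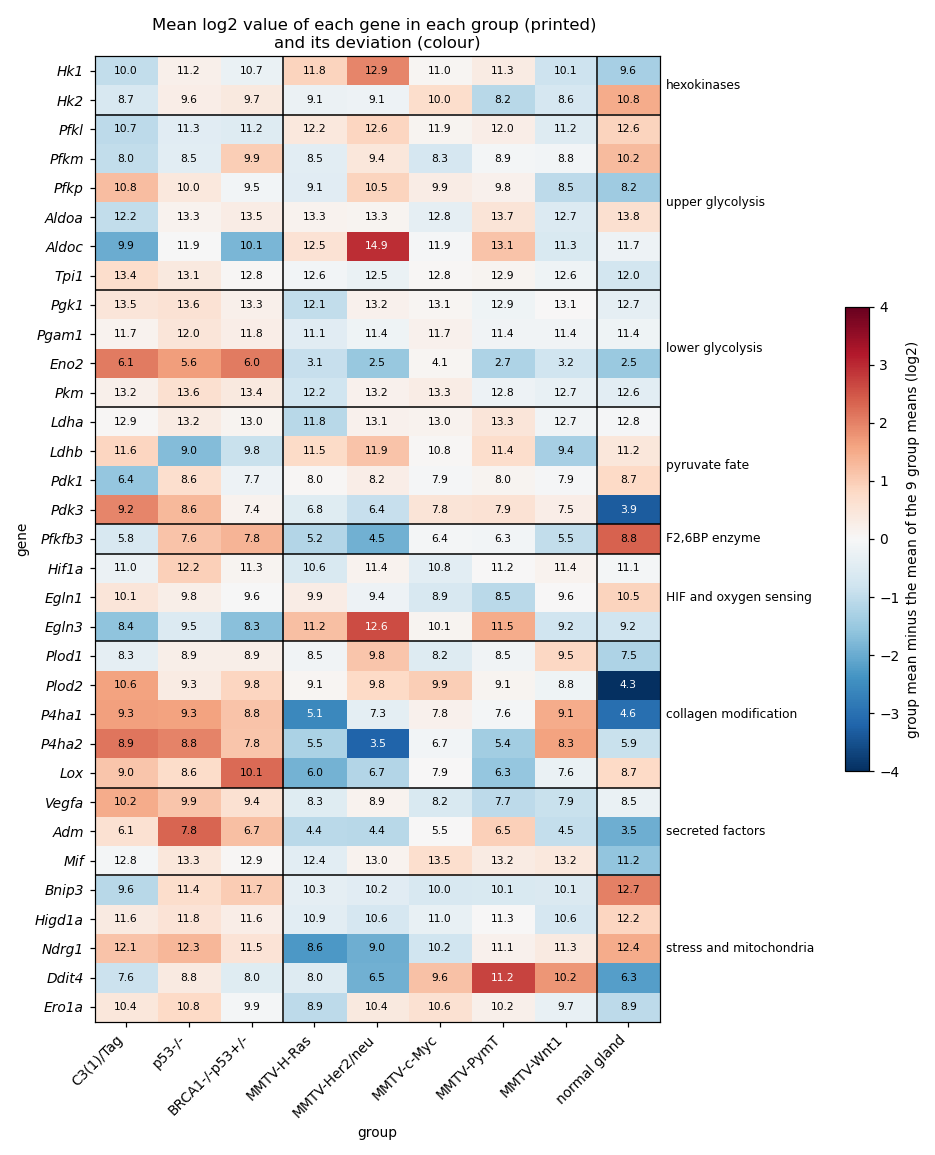
Mean log2 level of each of the 33 members in the 8 tumor models and normal gland. The printed number is the group mean and the colour is its distance from the mean of the 9 group means of that gene, so MMTV-Her2/neu stands out for Hk1 and Aldoc and MMTV-PymT for Ddit4.

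The hexokinases, which trap glucose in the cell by phosphorylating it, moved apart. Hk1, the form present in most tissues, was higher in tumors than in gland, and Hk2, the form of muscle and fat that HIF also induces, was lower. Log2 levels of Hk1 were 9.94, 9.42, 9.69, 10.70 and 10.15 in C3(1)/Tag, 10.77 to 11.63 with a median of 11.14 in p53-/- transplant, and 10.29, 9.64, 11.10, 10.82 and 11.61 in BRCA1-/-p53+/- tumors. Luminal-type Hk1 values were 10.35 to 11.90 with a median of 11.53 in MMTV-PymT, 13.38, 13.11, 12.93, 12.27 and 12.79 in MMTV-Her2/neu, 10.65, 11.33, 12.16, 13.08 and 11.91 in MMTV-H-Ras, 10.88, 9.64, 10.54 and 9.36 in MMTV-Wnt1, and 11.32, 10.26, 11.52 and 11.03 in MMTV-c-Myc tumors. Normal gland Hk1 values were 9.22, 10.03, 9.71, 9.24 and 9.84. Of the 41 tumors 35 lay above the highest gland, and the MMTV-Her2/neu tumors lay above every other array except MMTV-H-Ras 4. Hk1 rose against gland (log2 difference 1.51, SE 0.28, 2.85-fold, adjusted p = 3.65e-05) and was lower in basal-type tumors than in luminal-type ones (log2 difference -0.82, SE 0.30, 1.76-fold, adjusted p = 0.0366). The class difference was close to the threshold and did not pass with the model as a random block (limma, adjusted p = 0.303). It lost its call without BRCA1-/-p53+/- 2 (adjusted p = 0.0536), without C3(1)/Tag 1, 2, 3 or 5, without MMTV-H-Ras 4, without any of the 5 MMTV-Her2/neu tumors (adjusted p up to 0.0639 over these 11 fits), and with the other Hk1 probe set (adjusted p = 0.136). Hk1 was also 1 of the 6 members with the smallest p among the 8 models (F = 12, adjusted p = 1.01e-06), from 9.98 ± 0.49 in C3(1)/Tag to 12.90 ± 0.41 in MMTV-Her2/neu.

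Mean Hk2 levels were 10.79 ± 0.86 in normal gland, 8.67 ± 0.97 in C3(1)/Tag, 9.57 ± 1.17 in p53-/- transplant, 9.69 ± 0.89 in BRCA1-/-p53+/-, 8.19 ± 0.82 in MMTV-PymT, 9.09 ± 0.30 in MMTV-Her2/neu, 9.08 ± 1.04 in MMTV-H-Ras, 8.63 ± 0.56 in MMTV-Wnt1 and 10 ± 0.68 in MMTV-c-Myc. Gland was the highest of the 9 groups, 31 of 41 tumors lay below the lowest gland and none above the highest. Hk2 fell against gland (log2 difference -1.67, SE 0.41, 3.19-fold, adjusted p = 0.00103) and did not pass between the classes (log2 difference 0.40, adjusted p = 0.331).

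Members of upper glycolysis differed in which models held them. Phosphofructokinase commits sugar to the pathway, and its liver-type subunit gene Pfkl was lower in tumors than in gland (log2 difference -1.01, SE 0.29, 2.01-fold, adjusted p = 0.00545) and lower in basal-type tumors than in luminal-type ones (log2 difference -0.92, SE 0.22, 1.89-fold, adjusted p = 0.00227). Mean Pfkl levels were 12.63 ± 0.41 in normal gland, 10.69 ± 0.41 in C3(1)/Tag, 11.27 ± 0.50 in p53-/- transplant, 11.21 ± 1.10 in BRCA1-/-p53+/-, 12.01 ± 0.53 in MMTV-PymT, 12.58 ± 0.11 in MMTV-Her2/neu, 12.15 ± 0.90 in MMTV-H-Ras, 11.22 ± 0.55 in MMTV-Wnt1 and 11.86 ± 0.57 in MMTV-c-Myc. The 5 MMTV-Her2/neu tumors lay between 12.42 and 12.71, within the gland range of 12.16 to 13.10. All 5 C3(1)/Tag tumors, at 10 to 11.04, lay below every gland and every MMTV-Her2/neu tumor. The Pfkl class difference did not pass with the model as a random block (limma, adjusted p = 0.196).

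The muscle-type subunit gene Pfkm had mean levels of 10.21 ± 0.79 in normal gland, 7.98 ± 0.68 in C3(1)/Tag, 8.52 ± 0.76 in p53-/- transplant, 9.93 ± 1.93 in BRCA1-/-p53+/-, 8.87 ± 0.27 in MMTV-PymT, 9.40 ± 0.10 in MMTV-Her2/neu, 8.54 ± 0.91 in MMTV-H-Ras, 8.83 ± 0.88 in MMTV-Wnt1 and 8.28 ± 0.28 in MMTV-c-Myc. It was lower in tumors than in gland (log2 difference -1.42, SE 0.41, 2.68-fold, adjusted p = 0.00508). BRCA1-/-p53+/- 2 had 12.72, above every gland, and its skeletal muscle score was also the highest of all tumors. Among tumors the Pfkm level correlated with that score at r = 0.58 within models (n = 41) and 0.25 without that tumor (n = 40). The platelet-type gene Pfkp was higher in tumors (log2 difference 1.61, SE 0.59, 3.06-fold, adjusted p = 0.0261), with means from 8.53 in MMTV-Wnt1 to 10.83 in C3(1)/Tag and 8.15 ± 1.67 in gland. Its call was lost without normal gland 1, 4 or 5 (adjusted p = 0.0585, 0.167 and 0.115), with the other Pfkp probe set (0.87, adjusted p = 0.302) and with the mean of both (adjusted p = 0.0817), and it did not differ among the models by the F test (adjusted p = 0.195).

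Aldolases split the doubly phosphorylated sugar. Aldoa, the form of muscle and most tissues, had means of 13.85 ± 0.45 in normal gland, 12.21 ± 0.46 in C3(1)/Tag, 13.35 ± 0.78 in p53-/- transplant, 13.50 ± 0.70 in BRCA1-/-p53+/-, 13.72 ± 0.40 in MMTV-PymT, 13.32 ± 0.21 in MMTV-Her2/neu, 13.33 ± 0.66 in MMTV-H-Ras, 12.65 ± 0.76 in MMTV-Wnt1 and 12.85 ± 0.49 in MMTV-c-Myc. It was lower in tumors than in gland (log2 difference -0.73, SE 0.28, 1.66-fold, adjusted p = 0.0307), which was lost without normal gland 2, 3 or 5 (adjusted p = 0.0877, 0.133 and 0.0548). C3(1)/Tag lay below the other 7 models (log2 difference -1.04, adjusted p = 0.00432). The Aldoa, Tpi1 and Ndrg1 probe sets used here have IDs ending in x_at, the maker's mark for probes that can match more than 1 transcript.

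Aldoc, the form best known from brain, showed the sharpest model pattern of the upper pathway. Log2 levels of Aldoc were 10.13, 9.70, 9.34, 10.08 and 10.35 in C3(1)/Tag, 8.89 to 14.19 with a median of 12.66 in p53-/- transplant, and 10.83, 9.91, 7.73, 8.69 and 13.30 in BRCA1-/-p53+/- tumors. Luminal-type Aldoc values were 12.86 to 13.44 with a median of 13.03 in MMTV-PymT, 14.82, 15.06, 14.91, 14.72 and 14.87 in MMTV-Her2/neu, 11.71, 11.80, 11.59, 14.22 and 13.21 in MMTV-H-Ras, 12.39, 12.23, 8.09 and 12.56 in MMTV-Wnt1, and 13.30, 11.24, 12.88 and 10.04 in MMTV-c-Myc tumors. Normal gland Aldoc values were 11.29, 11.38, 10.70, 13.21 and 12. Every MMTV-Her2/neu tumor lay above all other tumors and all glands, and every C3(1)/Tag tumor lay below all glands. The p53-/- transplant and BRCA1-/-p53+/- tumors spread across both. Aldoc was lower in basal-type tumors than in luminal-type ones (log2 difference -2.05, SE 0.54, 4.15-fold, adjusted p = 0.00452), and the difference in FVB arrays alone was -2.92, adjusted p = 0.00280. It was 3.35 higher in MMTV-Her2/neu than in the other 7 models (adjusted p = 0.000222), while tumors as a whole and gland differed by 0.23 (adjusted p = 0.799). Tpi1, which interconverts the products of aldolase, was higher in tumors (log2 difference 0.82, SE 0.20, 1.76-fold, adjusted p = 0.000858), with 37 of 41 tumors above the highest gland, and higher in basal-type tumors (log2 difference 0.46, SE 0.14, 1.38-fold, adjusted p = 0.0128), with the highest mean, 13.44 ± 0.48, in C3(1)/Tag. Neither class difference passed with the model as a random block (limma, adjusted p = 0.198 for Aldoc and 0.304 for Tpi1).

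All 4 measured members of lower glycolysis, Pgk1, Pgam1, Eno2 and Pkm, were higher in basal-type tumors than in luminal-type ones, where 15.9% of all genes were. With the model as a random block none of them passed (adjusted p = 0.241, 0.458, 0.103 and 0.316 in that order). In FVB arrays alone Eno2 was the 1 that did, where 18.5% of all genes were higher. None of the 4 passed against gland in limma, and 1 had an unadjusted p under 0.05. Pgk1 encodes the first enzyme of the pathway to yield ATP. Log2 levels of Pgk1 were 13.62, 13.82, 13.33, 13.58 and 13.36 in C3(1)/Tag, 13.07 to 14.12 with a median of 13.77 in p53-/- transplant, and 13.25, 12.57, 13.84, 14.14 and 12.57 in BRCA1-/-p53+/- tumors. Luminal-type Pgk1 values were 12.54 to 13.34 with a median of 12.84 in MMTV-PymT, 13.28, 13.20, 13.09, 13.54 and 13.08 in MMTV-Her2/neu, 12.01, 12.11, 11.65, 12.68 and 11.95 in MMTV-H-Ras, 13.17, 12.55, 13.94 and 12.67 in MMTV-Wnt1, and 13.38, 13.40, 13.40 and 12.39 in MMTV-c-Myc tumors. Normal gland Pgk1 values were 12.24, 13.12, 13.12, 12.44 and 12.64. The MMTV-H-Ras tumors were the lowest, with only MMTV-H-Ras 4 overlapping most other groups, and all C3(1)/Tag tumors lay above all glands. The 3 basal-type model means lay above the 5 luminal-type model means. Pgk1 was higher in basal-type tumors (log2 difference 0.63, SE 0.17, 1.55-fold, adjusted p = 0.00610), and lower in MMTV-H-Ras than in the other 7 models (log2 difference -1.18, adjusted p = 0.000103). Both other Pgk1 probe sets gave smaller class differences, 0.27 and 0.30, that did not pass.

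Eno2 lay near the low end of the scale in gland and in most luminal-type tumors. Log2 levels of Eno2 were 6.12, 8.66, 6.90, 5.08 and 3.56 in C3(1)/Tag, 2.58 to 7.34 with a median of 5.98 in p53-/- transplant, and 7.24, 2.94, 6.96, 10.30 and 2.70 in BRCA1-/-p53+/- tumors. Luminal-type Eno2 values were 2.24 to 3.29 with a median of 2.68 in MMTV-PymT, 3.08, 2.23, 2.24, 2.59 and 2.17 in MMTV-Her2/neu, 4.23, 3.38, 2.29, 2.68 and 2.73 in MMTV-H-Ras, 3.16, 2.17, 4.92 and 2.46 in MMTV-Wnt1, and 6.64, 2.93, 4.15 and 2.51 in MMTV-c-Myc tumors. Normal gland Eno2 values were 2.29, 2.26, 2.51, 3.11 and 2.24. All 5 C3(1)/Tag tumors and 6 of the 7 p53-/- transplant tumors exceeded every gland, and BRCA1-/-p53+/- tumors fell into 3 high and 2 low values. In the luminal-type class MMTV-c-Myc 1 at 6.64 was the highest. Eno2 did not pass against gland (adjusted p = 0.0564; 0.0468 or less without C3(1)/Tag 5, p53-/- transplant 7, BRCA1-/-p53+/- 2, 4 or 5, or MMTV-c-Myc 4). It had the largest class difference of all members (log2 difference 2.83, SE 0.48, 7.12-fold, adjusted p = 6.05e-05), which also passed in FVB arrays alone (3.02, adjusted p = 0.000232). Low values of GC-RMA are pulled towards a floor, so a fold from this level depends on that floor, as do those of other members with values under about 4 in a group.

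Pkm encodes the pyruvate kinase of most tissues other than liver and red cells. It was higher in basal-type tumors (log2 difference 0.62, SE 0.19, 1.53-fold, adjusted p = 0.0125), with the highest mean in p53-/- transplant, 13.61 ± 0.31, and the lowest tumor mean in MMTV-H-Ras, 12.17 ± 0.72. Pgam1, the phosphoglycerate mutase of most tissues, was higher as well (log2 difference 0.48, SE 0.17, 1.39-fold, adjusted p = 0.0351), but its call was lost without p53-/- transplant 1, 2 or 5, BRCA1-/-p53+/- 3 or 4, or MMTV-H-Ras 1 (adjusted p from 0.0505 to 0.0676) and its F test did not pass (adjusted p = 0.2).

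The lactate dehydrogenase genes passed neither between the classes nor against gland. Ldha encodes the subunit that favours lactate production. Log2 levels of Ldha were 13.03, 13.25, 12.96, 12.95 and 12.42 in C3(1)/Tag, 12.18 to 13.81 with a median of 13.33 in p53-/- transplant, and 12.39, 12.97, 12.97, 13.71 and 12.98 in BRCA1-/-p53+/- tumors. Luminal-type Ldha values were 12.85 to 13.69 with a median of 13.38 in MMTV-PymT, 13.42, 12.93, 12.78, 13.10 and 13.01 in MMTV-Her2/neu, 11.63, 11.38, 11.51, 13.05 and 11.27 in MMTV-H-Ras, 12.67, 12.27, 13.28 and 12.72 in MMTV-Wnt1, and 12.89, 13.34, 13.17 and 12.73 in MMTV-c-Myc tumors. Normal gland Ldha values were 12.53, 13.17, 13.03, 12.61 and 12.80. Glands and 7 of the 8 models overlapped, and 4 of 5 MMTV-H-Ras tumors lay below every other array, with MMTV-H-Ras 4 inside the range of the rest. Ldha did not pass against gland (log2 difference 0.06, SE 0.21, adjusted p = 0.847) or between the classes (0.27, SE 0.20, adjusted p = 0.308). It was lower in MMTV-H-Ras than in the other 7 models (log2 difference -1.28, adjusted p = 3.49e-05). The small difference from gland turned negative, to -0.15, when arrays were centred on their medians.

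The heart-type subunit gene Ldhb had means of 11.21 ± 1.39 in normal gland, 11.60 ± 2.06 in C3(1)/Tag, 9.02 ± 3.32 in p53-/- transplant, 9.84 ± 1.93 in BRCA1-/-p53+/-, 11.44 ± 0.35 in MMTV-PymT, 11.88 ± 0.31 in MMTV-Her2/neu, 11.51 ± 1.07 in MMTV-H-Ras, 9.41 ± 1.75 in MMTV-Wnt1 and 10.78 ± 1.19 in MMTV-c-Myc. Its p53-/- transplant tumors ran from 3.81 to 12.84, the widest range of any group for this gene, and it passed neither between the classes (adjusted p = 0.181) nor against gland (adjusted p = 0.640) nor among the models (adjusted p = 0.0744).

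The kinases that shut pyruvate dehydrogenase moved in opposite directions against gland. Pdk3 rose, and Pdk1 was lower. Log2 levels of Pdk3 were 9.74, 9.11, 8.85, 9.64 and 8.83 in C3(1)/Tag, 7.62 to 9.33 with a median of 8.80 in p53-/- transplant, and 7.08, 3.73, 8.53, 9.08 and 8.72 in BRCA1-/-p53+/- tumors. Luminal-type Pdk3 values were 6.59 to 8.53 with a median of 8.29 in MMTV-PymT, 5.89, 6.85, 6.58, 6.60 and 5.88 in MMTV-Her2/neu, 5.48, 7.66, 7.46, 5.91 and 7.51 in MMTV-H-Ras, 6.41, 8.34, 8.60 and 6.78 in MMTV-Wnt1, and 7.59, 6.17, 8.32 and 9.02 in MMTV-c-Myc tumors. Normal gland Pdk3 values were 2.99, 3.87, 5.69, 3.02 and 4.11. Of the 41 tumors 39 lay above the highest gland, the exceptions being MMTV-H-Ras 1 and BRCA1-/-p53+/- 2. The C3(1)/Tag tumors all lay above the MMTV-Her2/neu tumors. Pdk3 was higher in tumors (log2 difference 3.76, SE 0.50, 13.6-fold, adjusted p = 1.41e-07) and higher in basal-type tumors than in luminal-type ones (log2 difference 1.17, SE 0.37, 2.26-fold, adjusted p = 0.0164), a difference that passed in FVB arrays alone (1.98, adjusted p = 0.00206). The glands reached down to 2.99, so the fold against gland depends on the floor of the scale. Pdk3 did not pass between the classes with the model as a random block (limma, adjusted p = 0.329). Its level followed the proliferation score at r = 0.74 within models (n = 41) and 0.47 without BRCA1-/-p53+/- 2 (n = 40). The proliferation list was itself higher in tumors for 22 of 23 genes, with scores of -2.03 to -1.29 in gland and 1.23 to 1.62 in C3(1)/Tag, and its part in the Pdk3 result was not tested.

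Mean Pdk1 levels were 8.71 ± 0.47 in normal gland, 6.37 ± 0.32 in C3(1)/Tag, 8.58 ± 0.76 in p53-/- transplant, 7.72 ± 1.44 in BRCA1-/-p53+/-, 8.03 ± 0.85 in MMTV-PymT, 8.18 ± 0.43 in MMTV-Her2/neu, 7.98 ± 0.30 in MMTV-H-Ras, 7.87 ± 0.29 in MMTV-Wnt1 and 7.86 ± 0.76 in MMTV-c-Myc. The 5 C3(1)/Tag tumors, from 5.84 to 6.63, lay below every gland. Pdk1 was lower in tumors (log2 difference -0.89, SE 0.34, 1.86-fold, adjusted p = 0.0346), a call lost without normal gland 2, 3, 4 or 5 (adjusted p from 0.0581 to 0.132) and with the other Pdk1 probe set (adjusted p = 0.91). It was higher in p53-/- transplant than in the other 7 models (log2 difference 0.87, adjusted p = 0.0432). Pdk1 correlated with the proliferation score at r = 0.78 within models, or 0.62 without BRCA1-/-p53+/- 2 (n = 40).

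Pfkfb3 makes the sugar bisphosphate that activates phosphofructokinase, and it is both a HIF target and a gene of fat and muscle. Log2 levels of Pfkfb3 were 6.32, 7.03, 4.91, 6.30 and 4.37 in C3(1)/Tag, 6.23 to 8.83 with a median of 7.58 in p53-/- transplant, and 6.55, 10.13, 7.45, 7.61 and 7.20 in BRCA1-/-p53+/- tumors. Luminal-type Pfkfb3 values were 5.89 to 6.95 with a median of 6.23 in MMTV-PymT, 4.98, 4.35, 4.37, 4.46 and 4.45 in MMTV-Her2/neu, 4.70, 5.86, 4.47, 6.80 and 4.42 in MMTV-H-Ras, 4.43, 4.65, 6.66 and 6.11 in MMTV-Wnt1, and 6.52, 6.82, 5.92 and 6.21 in MMTV-c-Myc tumors. Normal gland Pfkfb3 values were 8.58, 10.43, 9.63, 7.77 and 7.60. Of the 41 tumors 36 lay below the lowest gland, and none above the highest. Within the tumors the p53-/- transplant and BRCA1-/-p53+/- groups were high and MMTV-Her2/neu was low without overlap with either. Pfkfb3 was lower in tumors than in gland (log2 difference -2.66, SE 0.43, 6.34-fold, adjusted p = 3.71e-06) and higher in basal-type tumors than in luminal-type ones (log2 difference 1.53, SE 0.35, 2.88-fold, adjusted p = 0.00159). In FVB arrays alone the class difference was 0.19, adjusted p = 0.79, where C3(1)/Tag, the one basal-type model, had a mean of 5.79, and the other Pfkfb3 probe set gave a class difference of -0.28 that did not pass. Pfkfb3 did not pass between the classes with the model as a random block (limma, adjusted p = 0.146).

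**Figure D3:**
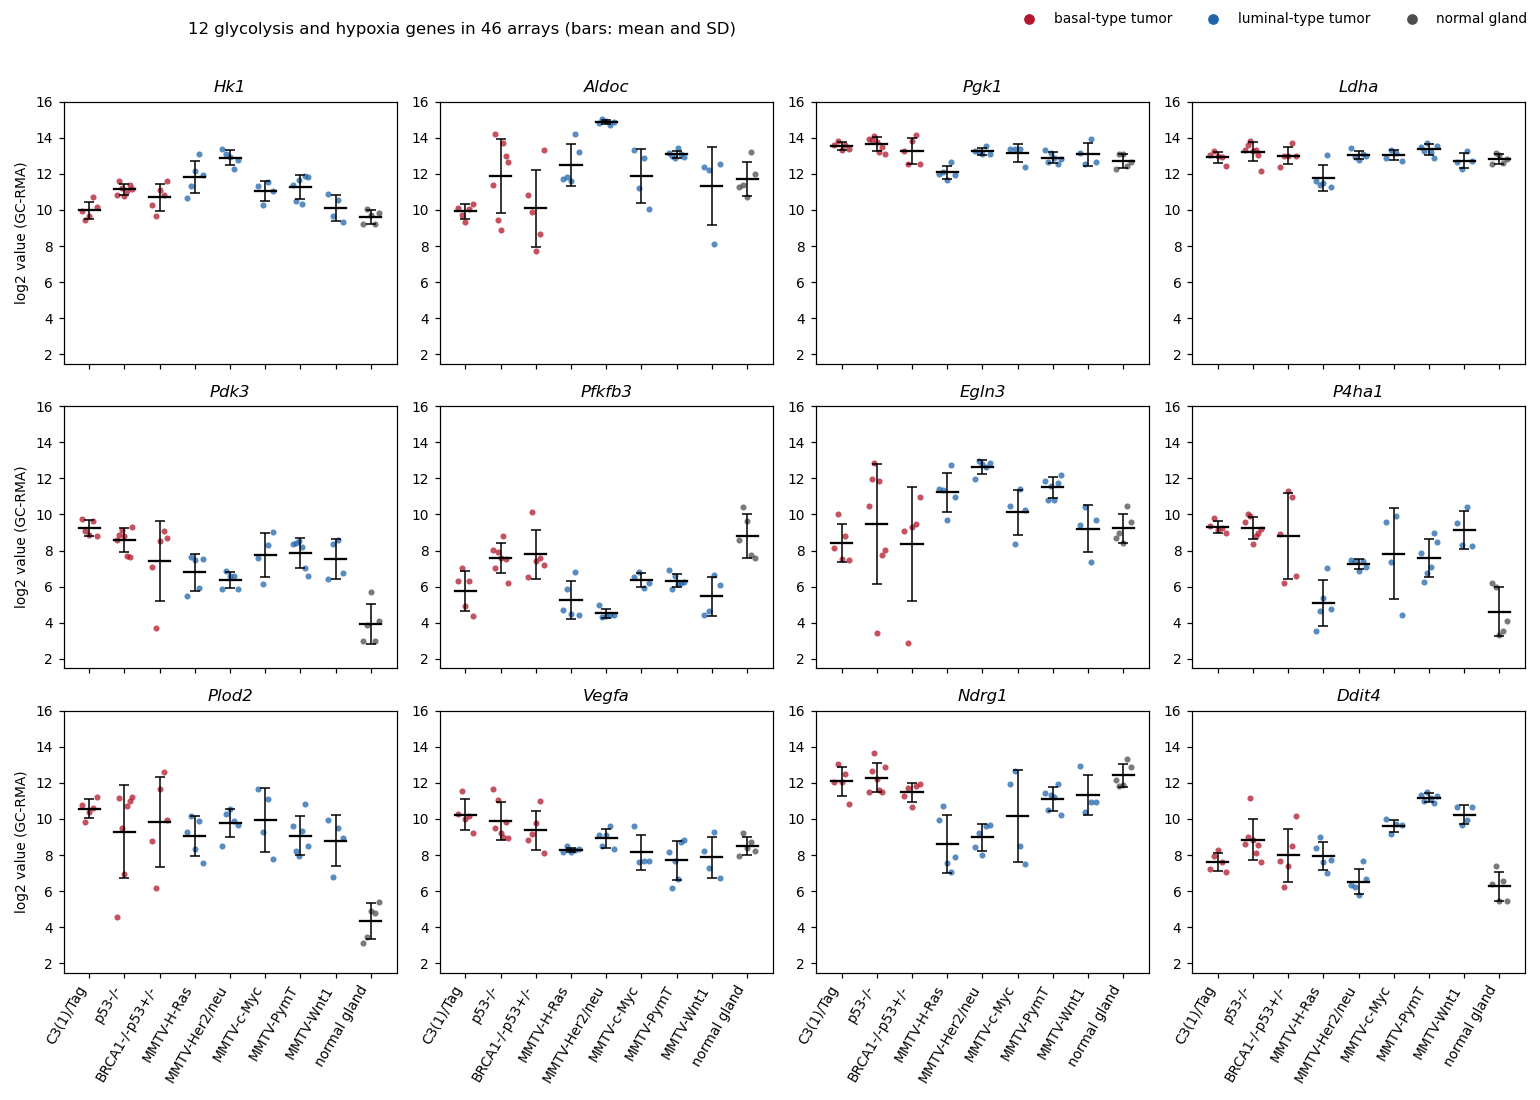
Log2 levels of 12 members in each of the 46 arrays, by group, with the group mean and SD as bars. For Pdk3 and Plod2 nearly all tumors lie above the glands, and for Ldha the MMTV-H-Ras tumors other than MMTV-H-Ras 4 lie below all other arrays.

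In the oxygen-sensing group the gene of the transcription factor subunit itself passed in neither main comparison with the probe set used. Means of Hif1a were 11.13 ± 0.59 in normal gland, 10.98 ± 0.25 in C3(1)/Tag, 12.17 ± 0.73 in p53-/- transplant, 11.33 ± 1.02 in BRCA1-/-p53+/-, 11.22 ± 0.58 in MMTV-PymT, 11.37 ± 0.29 in MMTV-Her2/neu, 10.61 ± 0.31 in MMTV-H-Ras, 11.36 ± 0.53 in MMTV-Wnt1 and 10.79 ± 0.43 in MMTV-c-Myc. The p53-/- transplant mean was the highest, 1.08 above the other 7 models (adjusted p = 0.00189), and p53-/- transplant 4 had the highest value at 13.52. Hif1a did not pass against gland (log2 difference 0.10, SE 0.28, adjusted p = 0.801) or between the classes (log2 difference 0.50, adjusted p = 0.0796), although the class difference passed without BRCA1-/-p53+/- 2 (0.60, adjusted p = 0.0251), with 1 of the other Hif1a probe sets (1.40, adjusted p = 0.0199) and with the mean of the probe sets (0.83, adjusted p = 0.022). HIF is regulated largely through protein stability, which arrays do not measure.

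Egln3 encodes an oxygen-sensing hydroxylase that HIF itself induces. Log2 levels of Egln3 were 8.15, 10.03, 7.56, 8.79 and 7.49 in C3(1)/Tag, 3.42 to 12.83 with a median of 10.45 in p53-/- transplant, and 9.07, 2.88, 9.32, 9.47 and 10.99 in BRCA1-/-p53+/- tumors. Luminal-type Egln3 values were 10.80 to 12.18 with a median of 11.66 in MMTV-PymT, 11.97, 12.97, 12.78, 12.64 and 12.84 in MMTV-Her2/neu, 11.43, 11.35, 9.69, 12.73 and 10.94 in MMTV-H-Ras, 9.40, 10.40, 7.36 and 9.71 in MMTV-Wnt1, and 10.46, 8.38, 11.40 and 10.22 in MMTV-c-Myc tumors. Normal gland Egln3 values were 8.72, 8.98, 8.40, 10.48 and 9.58. MMTV-Her2/neu tumors were the highest and did not overlap C3(1)/Tag, BRCA1-/-p53+/- or gland, whereas the p53-/- transplant tumors spanned nearly the whole range. Egln3 was lower in basal-type tumors than in luminal-type ones (log2 difference -2.24, SE 0.63, 4.73-fold, adjusted p = 0.00698), opposite in direction to most HIF-induced members, and the difference without BRCA1-/-p53+/- 2, whose value of 2.88 was the lowest of all arrays, was -1.87, adjusted p = 0.0113. In FVB arrays alone it was -2.67, adjusted p = 0.00299. Egln3 did not pass between the classes with the model as a random block (limma, adjusted p = 0.280). Egln1, the main hydroxylase of HIF in most tissues, was lower in tumors than in gland (log2 difference -0.99, SE 0.29, 1.99-fold, adjusted p = 0.00485) and slightly higher in basal-type tumors (log2 difference 0.57, SE 0.22, 1.48-fold, adjusted p = 0.0440), with the lowest mean, 8.51 ± 0.59, in MMTV-PymT. The other Egln1 probe set did not pass against gland (-0.77, adjusted p = 0.123). The Egln1 class call was lost in 23 of the 41 fits that left out 1 tumor, with adjusted p up to 0.0717, under median centring (adjusted p = 0.101), with the model as a random block (adjusted p = 0.421) and in FVB arrays alone (0.83, adjusted p = 0.0761). Those 23 left out C3(1)/Tag 1 to 4, p53-/- transplant 2, 3, 4 or 6, BRCA1-/-p53+/- 2, 3 or 4, MMTV-H-Ras 1 or 4, MMTV-Her2/neu 5, MMTV-c-Myc 2, 3 or 4, or any MMTV-PymT tumor.

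Collagen-modifying enzymes hydroxylate and cross-link collagen, and no member of this group was called lower in either main comparison. Of 5 members 3 were higher in tumors, where 24.2% of all genes were. In basal-type tumors 3 were higher, where 15.9% of all genes were. Plod2 encodes the lysyl hydroxylase of collagen ends. Log2 levels of Plod2 were 10.78, 9.85, 10.41, 10.62 and 11.22 in C3(1)/Tag, 4.57 to 11.19 with a median of 10.71 in p53-/- transplant, and 8.76, 6.20, 11.67, 12.58 and 9.94 in BRCA1-/-p53+/- tumors. Luminal-type Plod2 values were 7.94 to 10.83 with a median of 8.93 in MMTV-PymT, 8.53, 10.26, 10.55, 9.88 and 9.64 in MMTV-Her2/neu, 9.30, 10.15, 8.36, 9.91 and 7.57 in MMTV-H-Ras, 9.96, 6.80, 9.49 and 8.97 in MMTV-Wnt1, and 11.67, 9.26, 11.09 and 7.77 in MMTV-c-Myc tumors. Normal gland Plod2 values were 3.15, 3.47, 4.91, 4.82 and 5.40. All tumors but p53-/- transplant 1, at 4.57, lay above the highest gland. Glands at 3.15 and 3.47 lay near the floor of the scale, so the fold of Plod2 depends on that floor. Plod2 rose by the largest amount of any member (log2 difference 5.20, SE 0.75, 36.6-fold, adjusted p = 5.13e-07), and it differed neither between the classes (adjusted p = 0.463) nor among the models (adjusted p = 0.699) beyond the spread of tumors. Plod1, a lysyl hydroxylase of the collagen helix, was higher in tumors (log2 difference 1.40, SE 0.57, 2.65-fold, adjusted p = 0.0431), a call that was lost without MMTV-c-Myc 1 or 3 or normal gland 1, 4 or 5 (adjusted p from 0.0501 to 0.17) and under median centring (adjusted p = 0.0758).

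P4ha1 and P4ha2 encode catalytic subunits of collagen prolyl hydroxylase, and both promoters above hold 3 matches to the HIF core letters. P4ha1 means were 4.63 ± 1.35 in normal gland, 9.30 ± 0.32 in C3(1)/Tag, 9.27 ± 0.61 in p53-/- transplant, 8.80 ± 2.37 in BRCA1-/-p53+/-, 7.58 ± 1.06 in MMTV-PymT, 7.27 ± 0.26 in MMTV-Her2/neu, 5.09 ± 1.28 in MMTV-H-Ras, 9.14 ± 1.05 in MMTV-Wnt1 and 7.84 ± 2.52 in MMTV-c-Myc. Of the 41 tumors 36 lay above the highest gland, and the MMTV-H-Ras mean was closest to gland. P4ha1 was higher in tumors (log2 difference 3.41, SE 0.62, 10.6-fold, adjusted p = 2.42e-05), higher in basal-type tumors (log2 difference 1.84, SE 0.49, 3.58-fold, adjusted p = 0.00529, but 2.00, adjusted p = 0.0579 in FVB arrays alone) and lower in MMTV-H-Ras than in the other 7 models (log2 difference -3.36, adjusted p = 0.000136). The lowest gland was 3.35, so the fold against gland depends on the floor of the scale. P4ha1 did not pass between the classes with the model as a random block (limma, adjusted p = 0.235).

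P4ha2 had the same class pattern without the rise against gland. Log2 levels of P4ha2 were 8.83, 11.13, 10.06, 7.70 and 6.78 in C3(1)/Tag, 7.13 to 10.39 with a median of 8.42 in p53-/- transplant, and 8.62, 7.85, 10.12, 9.19 and 3.48 in BRCA1-/-p53+/- tumors. Luminal-type P4ha2 values were 3.45 to 7.51 with a median of 5.15 in MMTV-PymT, 3.44, 3.42, 3.36, 4.11 and 3.43 in MMTV-Her2/neu, 5.59, 6.58, 6.52, 3.41 and 5.29 in MMTV-H-Ras, 8.75, 7.24, 9.67 and 7.74 in MMTV-Wnt1, and 10.15, 6.79, 6.24 and 3.40 in MMTV-c-Myc tumors. Normal gland P4ha2 values were 5.56, 5.46, 5.78, 7.07 and 5.46. All C3(1)/Tag, p53-/- transplant and MMTV-Wnt1 tumors lay above all MMTV-Her2/neu tumors, and 4 of 5 BRCA1-/-p53+/- tumors did. MMTV-c-Myc tumors ranged from 3.40 to 10.15. P4ha2 was higher in basal-type tumors (log2 difference 2.81, SE 0.62, 7.01-fold, adjusted p = 0.000998; 3.18, adjusted p = 0.0160 in FVB arrays alone) and lower in MMTV-Her2/neu than in the other 7 models (log2 difference -3.78, adjusted p = 0.000318), and did not pass against gland (adjusted p = 0.304). Its class difference did not pass with the model as a random block (limma, SE 0.99, adjusted p = 0.160).

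Lox oxidises collagen lysines so that fibrils cross-link, and it is a product of fibroblasts as well as a HIF target. Log2 levels of Lox were 8.46, 8.92, 10.29, 9.29 and 7.88 in C3(1)/Tag, 6.77 to 11.02 with a median of 8.48 in p53-/- transplant, and 10.59, 10.74, 10.81, 13.16 and 5.28 in BRCA1-/-p53+/- tumors. Luminal-type Lox values were 4.25 to 7.60 with a median of 6.50 in MMTV-PymT, 5.21, 5.93, 6.81, 8.87 and 6.57 in MMTV-Her2/neu, 5.75, 5.39, 5.90, 4.44 and 8.31 in MMTV-H-Ras, 5.71, 3.22, 11.86 and 9.60 in MMTV-Wnt1, and 7.07, 9.72, 7.30 and 7.39 in MMTV-c-Myc tumors. Normal gland Lox values were 8.75, 9.04, 8.48, 8.67 and 8.33. Among BRCA1-/-p53+/- tumors 4 of 5 exceeded every gland, and MMTV-Wnt1 tumors held both the lowest value of all arrays and 11.86. The 3 basal-type model means lay above the 5 luminal-type means. Lox was higher in basal-type tumors (log2 difference 2.37, SE 0.58, 5.15-fold, adjusted p = 0.00257), a call lost in FVB arrays alone (2.18, adjusted p = 0.0552), and did not pass against gland (-0.89, adjusted p = 0.405). Within models it correlated with a score of 18 fibroblast and matrix genes at r = 0.81, P4ha2 did so at 0.60, and Ldha at -0.07 (n = 41 tumors, which share arrays and models). That list was higher in basal-type tumors for 16 of 18 genes with a median difference of 2.07, and the part of fibroblast content in the Lox and P4ha2 results was not tested. In RNA from whole tumors, fewer cells of a type and less RNA per cell cannot be told apart.

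Of the secreted factors Vegfa and Adm were higher in basal-type tumors, and Mif and Adm were higher in tumors than in gland. Vegfa encodes the main angiogenic growth factor. Log2 levels of Vegfa were 10.27, 11.56, 10.01, 10.14 and 9.24 in C3(1)/Tag, 8.97 to 11.64 with a median of 9.52 in p53-/- transplant, and 8.82, 9.15, 9.76, 10.99 and 8.14 in BRCA1-/-p53+/- tumors. Luminal-type Vegfa values were 6.17 to 8.82 with a median of 7.94 in MMTV-PymT, 9.09, 8.51, 9.10, 9.61 and 8.31 in MMTV-Her2/neu, 8.19, 8.48, 8.15, 8.27 and 8.32 in MMTV-H-Ras, 8.22, 7.27, 9.29 and 6.71 in MMTV-Wnt1, and 9.62, 7.64, 7.66 and 7.68 in MMTV-c-Myc tumors. Normal gland Vegfa values were 7.96, 9.21, 8.39, 8.71 and 8.20. All C3(1)/Tag tumors lay above all glands and above all MMTV-H-Ras and MMTV-PymT tumors, and the 3 basal-type means lay above the 5 luminal-type means. Vegfa was higher in basal-type tumors (log2 difference 1.66, SE 0.29, 3.16-fold, adjusted p = 9.34e-05; 2.06, adjusted p = 0.000550 in FVB arrays alone). Under a random block for the model it had the lowest adjusted p of the members, 0.101. Tumors as a whole and gland differed by 0.31 (SE 0.41, adjusted p = 0.566).

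Adm, which encodes the vasodilator adrenomedullin, had means of 3.54 ± 0.13 in normal gland, 6.08 ± 2.22 in C3(1)/Tag, 7.81 ± 2.57 in p53-/- transplant, 6.68 ± 1.88 in BRCA1-/-p53+/-, 6.45 ± 1.15 in MMTV-PymT, 4.38 ± 1.15 in MMTV-Her2/neu, 4.39 ± 1.21 in MMTV-H-Ras, 4.53 ± 1.92 in MMTV-Wnt1 and 5.49 ± 1.73 in MMTV-c-Myc. The glands lay within 3.39 to 3.67, at the low end of the scale, and 32 of 41 tumors lay above them. Adm was higher in tumors (log2 difference 2.19, SE 0.79, 4.55-fold, adjusted p = 0.0249), a call lost without normal gland 2 or 3 (adjusted p = 0.056 and 0.0568), and in basal-type tumors (log2 difference 1.86, SE 0.58, 3.63-fold, adjusted p = 0.0145). In FVB arrays alone the Adm class difference was 0.97, adjusted p = 0.385, and p53-/- transplant lay 2.38 above the other 7 models (adjusted p = 0.0155). Adm did not pass between the classes with the model as a random block (limma, adjusted p = 0.346).

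Mif, a cytokine of macrophages and epithelium, separated tumors from gland most evenly. Log2 levels of Mif were 12.74, 13.03, 12.67, 12.55 and 12.78 in C3(1)/Tag, 12.71 to 14.11 with a median of 13.11 in p53-/- transplant, and 13.17, 11.16, 13.50, 13.36 and 13.15 in BRCA1-/-p53+/- tumors. Luminal-type Mif values were 12.77 to 13.66 with a median of 13.12 in MMTV-PymT, 13.52, 12.75, 12.58, 13.25 and 12.68 in MMTV-Her2/neu, 12.39, 12.54, 12.49, 12.31 and 12.29 in MMTV-H-Ras, 12.71, 13.35, 13.71 and 13.20 in MMTV-Wnt1, and 13.31, 13.35, 13.72 and 13.65 in MMTV-c-Myc tumors. Normal gland Mif values were 11.22, 11.41, 11.11, 10.99 and 11.53. All tumors but BRCA1-/-p53+/- 2, at 11.16, lay above the highest gland. Mif was higher in tumors (log2 difference 1.77, SE 0.22, 3.41-fold, adjusted p = 2.44e-08), and the classes differed by -0.03 (SE 0.17, adjusted p = 0.910). Its correlation with the proliferation score within models was 0.69, or 0.31 without BRCA1-/-p53+/- 2.

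Stress and mitochondrial members split against gland, with Ddit4 and Ero1a higher and Bnip3, Higd1a and Ndrg1 lower. Bnip3 marks mitochondria for removal, and its promoter above holds 4 matches. Mean Bnip3 levels were 12.70 ± 0.68 in normal gland, 9.56 ± 0.83 in C3(1)/Tag, 11.38 ± 1.59 in p53-/- transplant, 11.69 ± 0.56 in BRCA1-/-p53+/-, 10.06 ± 0.39 in MMTV-PymT, 10.22 ± 0.35 in MMTV-Her2/neu, 10.32 ± 0.56 in MMTV-H-Ras, 10.10 ± 1.04 in MMTV-Wnt1 and 10.02 ± 1.48 in MMTV-c-Myc. The lowest gland was 11.93, and 37 of 41 tumors lay below it. Bnip3 was lower in tumors (log2 difference -2.28, SE 0.44, 4.87-fold, adjusted p = 5.56e-05) and did not pass between the classes (adjusted p = 0.0736; 0.0207 without p53-/- transplant 7 and 0.0486 or less without C3(1)/Tag 3, 4 or 5, MMTV-c-Myc 2 or MMTV-Wnt1 3), though BRCA1-/-p53+/- and p53-/- transplant each lay above the other 7 models (log2 differences 1.45 and 1.10, adjusted p = 0.0194 and 0.0451). Without BRCA1-/-p53+/- 2, at 12.62 the highest of its model, the BRCA1-/-p53+/- difference no longer passed (1.22, adjusted p = 0.101). Higd1a, a small mitochondrial protein gene induced by low oxygen, was lower in tumors (log2 difference -0.98, SE 0.32, 1.97-fold, adjusted p = 0.0117) and higher in basal-type tumors than in luminal-type ones (log2 difference 0.79, SE 0.21, 1.73-fold, adjusted p = 0.00568), with all 3 basal-type means above the 5 luminal-type means. Without normal gland 3 the difference from gland lost its call (adjusted p = 0.0715), and in FVB arrays alone the class difference did (0.73, adjusted p = 0.103), as it did with the model as a random block (limma, adjusted p = 0.273). Of the other 2 Higd1a probe sets the dimmer, with a mean of 3.34, passed neither against gland (-0.67, adjusted p = 0.175) nor between the classes (0.35, adjusted p = 0.319).

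Ndrg1 is induced by low oxygen and by differentiation. Log2 levels of Ndrg1 were 12.06, 13.05, 12.04, 12.47 and 10.85 in C3(1)/Tag, 11.50 to 13.64 with a median of 12.22 in p53-/- transplant, and 11.27, 11.70, 10.67, 11.81 and 11.93 in BRCA1-/-p53+/- tumors. Luminal-type Ndrg1 values were 10.21 to 11.94 with a median of 11.26 in MMTV-PymT, 8.46, 9.23, 7.98, 9.62 and 9.67 in MMTV-Her2/neu, 9.93, 10.71, 7.54, 7.04 and 7.92 in MMTV-H-Ras, 12.92, 10.39, 10.96 and 10.95 in MMTV-Wnt1, and 11.93, 12.68, 8.5 and 7.5 in MMTV-c-Myc tumors. Normal gland Ndrg1 values were 12.14, 11.83, 11.87, 13.32 and 12.88. No C3(1)/Tag or p53-/- transplant tumor overlapped the MMTV-H-Ras or MMTV-Her2/neu tumors, and MMTV-c-Myc fell into 2 high and 2 low values. Ndrg1 was higher in basal-type tumors (log2 difference 1.97, SE 0.43, 3.92-fold, adjusted p = 0.000944; 2.07, adjusted p = 0.0403 in FVB arrays alone) and lower in tumors as a whole than in gland (log2 difference -1.66, SE 0.52, 3.15-fold, adjusted p = 0.00967), though not with 1 of the 4 other probe sets (-1.35, adjusted p = 0.0893). Ndrg1 did not pass between the classes with the model as a random block (limma, adjusted p = 0.135). It was among the 6 members with the smallest F test p (F = 8.22, adjusted p = 3.00e-05), with Ddit4, Hk1, Pfkfb3, P4ha2 and Aldoc.

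Ddit4, an inhibitor of the growth kinase mTOR that is induced by hypoxia and other stresses, had the largest F statistic of the members among the models. Log2 levels of Ddit4 were 7.22, 7.94, 8.26, 7.60 and 7.09 in C3(1)/Tag, 7.63 to 11.18 with a median of 8.63 in p53-/- transplant, and 7.68, 6.23, 7.42, 8.48 and 10.18 in BRCA1-/-p53+/- tumors. Luminal-type Ddit4 values were 10.87 to 11.51 with a median of 11.22 in MMTV-PymT, 6.33, 6.21, 5.80, 7.68 and 6.66 in MMTV-Her2/neu, 8.38, 9, 7.61, 7.01 and 7.73 in MMTV-H-Ras, 10.69, 9.68, 9.94 and 10.65 in MMTV-Wnt1, and 9.99, 9.19, 9.71 and 9.66 in MMTV-c-Myc tumors. Normal gland Ddit4 values were 6.42, 7.38, 5.48, 6.59 and 5.48. The 6 MMTV-PymT tumors overlapped only p53-/- transplant 3, and MMTV-c-Myc and MMTV-Wnt1 tumors all lay above every gland. MMTV-Her2/neu tumors lay among the glands or just above. Ddit4 had the smallest F test p of the members (F = 18.2, adjusted p = 1.41e-08) and was 2.78 higher in MMTV-PymT than in the other 7 models (adjusted p = 2.09e-06). It was higher in tumors than in gland (log2 difference 2.48, SE 0.39, 5.58-fold, adjusted p = 2.15e-06). The classes, with a difference of -0.89 (SE 0.49), did not pass (adjusted p = 0.172). They passed in the 9-group fit with equal weights for the models (-0.95, adjusted p = 0.00407), where the SE, taken from the spread within groups, was 0.26. With the model as a random block the adjusted p was 0.453. Ero1a, which forms disulfide bonds in the endoplasmic reticulum, was higher in tumors (log2 difference 1.17, SE 0.38, 2.25-fold, adjusted p = 0.0128) and lowest in MMTV-H-Ras among the models (8.93 ± 0.85). Its call was lost without normal gland 1 (adjusted p = 0.0647) and with either other probe set (adjusted p = 0.173 and 0.195).

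Each model was then set against the equal-weighted mean of the other 7. In p53-/- transplant tumors 10 members were higher (Pgk1, Pkm, Pdk1, Pfkfb3, Hif1a, P4ha2, Vegfa, Adm, Bnip3 and Ndrg1), where 10.6% of all genes were higher. No member passed as lower in limma, 1 did so at an unadjusted p under 0.05, and 5.69% of all genes were lower. The members' median difference in this model was 0.53, beside 0.06 for all genes, and 27 of 33 were positive. The largest was Adm, at 2.38, adjusted p = 0.0155.

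MMTV-H-Ras tumors had the opposite leaning. There 7 members were lower (Pgk1, Pkm, Ldha, P4ha1, Ndrg1, Mif and Ero1a), where 14.8% of all genes were lower, and Hk1 alone was higher (0.81, adjusted p = 0.0349), where 9.64% of all genes were. The members' median difference was -0.60, beside -0.14 for all genes, and 8 of 33 were positive. P4ha1 had the largest difference, -3.36, adjusted p = 0.000136.

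C3(1)/Tag tumors had 6 members higher (Tpi1, Eno2, Pdk3, P4ha2, Vegfa and Ndrg1; 19.5% of all genes) and 6 lower (Hk1, Pfkl, Aldoa, Aldoc, Pdk1 and Ddit4; 9.42% of all genes). The lower 6 held 4 enzymes of the hexose stage, and the largest difference was that of P4ha2 (2.33, adjusted p = 0.0189). In MMTV-Her2/neu 4 members were higher (Hk1, Pfkl, Aldoc and Egln3; 16.1% of all genes) and 6 lower (Eno2, Pdk3, Pfkfb3, P4ha2, Ndrg1 and Ddit4; 9.07% of all genes).

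BRCA1-/-p53+/- tumors had 5 members higher (Pfkm, Eno2, Pfkfb3, Lox and Bnip3; 6.75% of all genes) and Aldoc lower (11.9% of all genes). Without BRCA1-/-p53+/- 2 only Eno2 and Pfkfb3 were higher and no member was lower by limma, where 4.32% and 6.65% of all genes were. MMTV-PymT had Ddit4 higher (10.9% of all genes) and Hk2, Egln1 and Vegfa lower (6.89% of all genes). MMTV-Wnt1 had Ddit4 higher (1.7, adjusted p = 0.0108; 2.64% of all genes) and Hk1 lower (-1.16, adjusted p = 0.0182; 3.69% of all genes). In MMTV-c-Myc no member passed in either direction in limma, where 4.76% of all genes were higher and 4.76% lower, and 3 members were higher at an unadjusted p under 0.05.

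**Figure D4:**
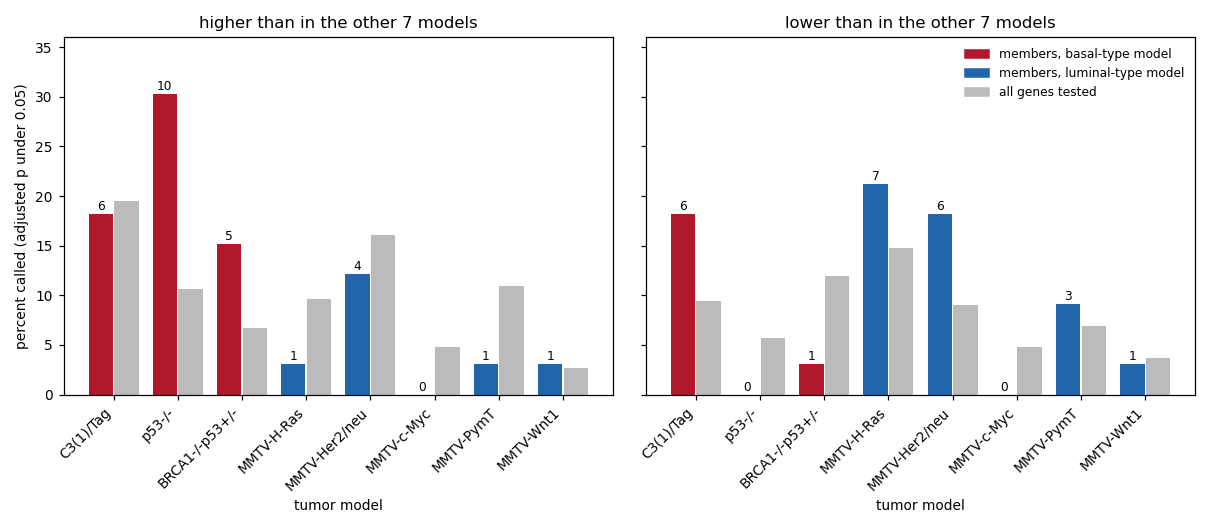
Percent of the 33 members and of all 9329 genes called higher or lower in each model than in the other 7 models. The members exceed the background most clearly for higher calls in p53-/- transplant, 10 of 33 against 10.6%. They fall below it for higher calls in several models, among them MMTV-H-Ras (1 of 33 against 9.64%), MMTV-PymT (1 of 33 against 10.9%) and MMTV-c-Myc (0 of 33 against 4.76%).

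Mif, Pdk3 and Plod2 were called higher than gland in each of the 8 models, which is 3 of 33 members where 3.1% of all genes were. No member was called lower in each of the 8 models in limma, nor at an unadjusted p under 0.05, where 4.03% of all genes were. Without BRCA1-/-p53+/- 2, 4 members were called in all 8 models, 3 higher and 1 lower. The all-gene shares of that fit were not counted. The 8 comparisons share the same 5 glands. Plod2 differences ran from 4.45 in MMTV-Wnt1 to 6.23 in C3(1)/Tag, those of Pdk3 from 2.42 in MMTV-Her2/neu to 5.30 in C3(1)/Tag, and those of Mif from 1.15 in MMTV-H-Ras to 2.26 in MMTV-c-Myc. Gland means lay above all 8 model means for 10 members, Hk2, Pfkl, Pfkm, Aldoa, Pdk1, Pfkfb3, Egln1, Bnip3, Higd1a and Ndrg1. Pfkfb3 differences ran from -4.28 in MMTV-Her2/neu to -1.01 in BRCA1-/-p53+/-. Without BRCA1-/-p53+/- 2 the Pfkfb3 difference of that model was -1.60 (limma, adjusted p = 0.0204).

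Members were scored in 2 groups, 17 of glucose metabolism and 16 of the hypoxia response, each score being the mean gene-wise z. The hypoxia response score averaged 0.56 ± 0.40 in p53-/- transplant, 0.24 ± 0.65 in BRCA1-/-p53+/- and 0.22 ± 0.34 in C3(1)/Tag. It averaged -0.51 ± 0.20 in MMTV-H-Ras, -0.21 ± 0.22 in MMTV-Her2/neu and -0.39 ± 0.14 in gland. The glucose metabolism score was highest in p53-/- transplant, 0.34 ± 0.49, and lowest in MMTV-Wnt1, -0.42 ± 0.37, where the hypoxia score was 0.02 ± 0.39. After removing model means, the 2 scores correlated at r = 0.60 over 41 tumors, which share arrays and normalization. A score of 28 further HIF-responsive genes, none of them a member, followed the hypoxia response score at r = 0.84.

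**Figure D5:**
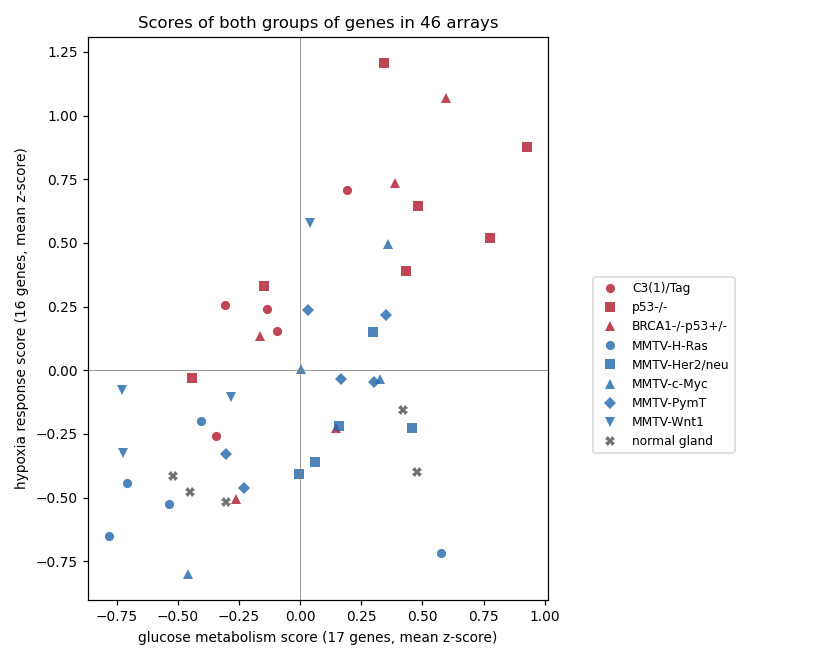
Glucose metabolism score against hypoxia response score for each of the 46 arrays, coloured by class (basal-type, luminal-type or normal gland), with marker shapes for the groups within a class. The p53-/- transplant tumors reach the upper right, and MMTV-H-Ras tumors lie at low hypoxia response scores, from -0.72 to -0.20.

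Pairs of members were compared within models in the same way, as a description over 41 tumors. The highest correlations were those of Pgam1 with Ero1a (r = 0.81), Aldoc with Ldhb (0.77), Adm with Bnip3 (0.76), Pgk1 with P4ha1 (0.72) and Vegfa with Adm (0.71). Each of these remained at 0.68 or more without BRCA1-/-p53+/- 2. Pfkl and Lox had the lowest value, -0.61. The median was 0.22 over 136 pairs within glucose metabolism, 0.21 over 120 pairs within the hypoxia response and 0.17 over 272 pairs across them.

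Genes around the pathway are given beside the members. Their counts, here and in the paragraphs below, are to be read against the shares over all genes. Those were 24.2% higher and 17.1% lower against gland, and 15.9% higher and 12% lower between the classes. Pyruvate dehydrogenase and its control had 7 tested genes that are not members, and all 7 were lower in tumors than in gland, with a median difference of -2.97. Pdk4, the kinase induced by fasting and fat use, was 12.50 in gland and 7.19 in tumors on average (log2 difference -5.26, SE 0.90, adjusted p = 1.04e-05), so against gland Pdk3 was the only measured kinase of this family to be higher. Pdk2 was the largest of 4 in this list that were lower in basal-type tumors (log2 difference -2.71, SE 0.50, adjusted p = 0.000144). Other genes of glycolytic isoenzymes gave 3 of 7 lower in tumors, led by Pgam2, the muscle mutase (log2 difference -4.68, SE 0.89, adjusted p = 4.54e-05), and 2 of 7 lower in basal-type tumors, led by the galactose enzyme Galm (log2 difference -1.50, SE 0.38, adjusted p = 0.00371). Pgam2 is also in the skeletal muscle list, so these lists overlap.

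Transport of glucose, lactate and protons had 2 of 10 genes higher and 2 lower in tumors, where 24.2% and 17.1% of all genes were. Car12, a carbonic anhydrase at the cell surface that HIF induces, rose from 2.60 to 9.66 on average (log2 difference 7.02, SE 0.59, adjusted p = 2.69e-12), a difference that depends on the floor of the scale since the gland level lies below the filter level of 4. Slc2a4, the insulin-responsive glucose transporter of fat and muscle, was lower in tumors (log2 difference -4.80, SE 0.55, adjusted p = 6.86e-09). Between the classes Slc16a3, the lactate exporter of glycolytic cells, was higher in basal-type tumors (log2 difference 2.27, SE 0.56, adjusted p = 0.00257), and Car12 lower (log2 difference -2.58, SE 0.55, adjusted p = 0.000717), with 2 of 10 higher and 3 lower, where 15.9% and 12% of all genes were. The main HIF-responsive transporter gene Slc2a1 did not pass against gland (log2 difference 0.18, SE 0.42, adjusted p = 0.753), and was named after its value was seen.

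Gluconeogenesis runs the pathway backwards, and 3 of its 6 genes were lower and 1 higher in tumors, where 17.1% and 24.2% of all genes were. Pck1, the cytosolic carboxykinase of liver and fat, was 12.14 in gland and 3.73, near the floor, in tumors (log2 difference -8.37, SE 0.88, adjusted p = 9.46e-10), and the mitochondrial form Pck2 was higher (log2 difference 1.81, SE 0.21, adjusted p = 7.99e-09). Between the classes Fbp2 was higher in basal-type tumors (log2 difference 1.15, SE 0.38, adjusted p = 0.0209) and Pck2 led 2 that were lower (log2 difference -0.79, SE 0.22, adjusted p = 0.00760). In the pentose phosphate pathway, which branches off glycolysis to make NADPH, 4 of 7 genes were lower in tumors and 3 lower in basal-type tumors, and Tkt led both (log2 difference -1.68, SE 0.26, adjusted p = 1.68e-06 against gland; log2 difference -1.19, SE 0.19, adjusted p = 3.47e-05 between the classes).

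Among 7 other HIF subunits and oxygen sensors Epas1, the alpha subunit best known from endothelium, was the single gene lower in tumors (log2 difference -3.13, SE 0.55, adjusted p = 1.25e-05), and Os9 led 2 that were lower in basal-type tumors (log2 difference -0.70, SE 0.18, adjusted p = 0.00420). Of 28 further HIF-responsive genes 11 were higher in tumors, led by the adenylate kinase gene Ak4 (log2 difference 4.23, SE 0.65, adjusted p = 1.51e-06), and 5 lower, led by the lipase inhibitor Angptl4 (log2 difference -4.18, SE 0.76, adjusted p = 2.28e-05). In the same list 4 were higher in basal-type tumors, led by Angptl4 (log2 difference 1.66, SE 0.61, adjusted p = 0.0382), and 2 lower, led by the glycogen regulator Ppp1r3c (log2 difference -2.13, SE 0.78, adjusted p = 0.0375). The median differences of this list were 0.30 against gland and 0.14 between the classes, close to the all-gene medians of 0.20 and 0.06. Shares over all genes were 24.2% higher and 17.1% lower against gland, and 15.9% higher and 12% lower between the classes. Of 9 further collagen-modifying genes Loxl3 was higher in tumors (log2 difference 3.11, SE 0.76, adjusted p = 0.00103), and Loxl1 led 2 that were higher in basal-type tumors (log2 difference 2.30, SE 0.59, adjusted p = 0.00356).

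Markers of other cell types moved with some of these differences. Against gland all 9 adipocyte genes, all 17 skeletal muscle genes and all 13 milk secretion genes were lower in tumors, and 6 of 14 endothelial genes were, beside 17.1% of all genes. The gland ranges of the adipocyte and milk scores, 1.90 to 2.4 and 1.54 to 1.82, lay above every group of tumors for milk and above all tumors but BRCA1-/-p53+/- 2 for adipocytes. Skeletal muscle scores ran from 0.06 to 2.35 in gland. Genes that fat or muscle also express, such as Pfkfb3, Hk2, Pfkm, Pgam2, Slc2a4, Pck1 and Pdk4, stood in the gland column with these scores, and the part of those cells in the lower tumor levels was not tested.

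Between the classes the fibroblast and matrix score had a median of 0.55 in the basal-type class and -0.56 in the luminal-type class, with ranges of -0.94 to 1.76 and -1.64 to 1.67 that overlapped. By model it averaged 0.95 ± 1.08 in BRCA1-/-p53+/-, 0.55 ± 0.92 in MMTV-Wnt1 and 0.53 ± 0.52 in p53-/- transplant, and -0.96 ± 0.52 in MMTV-H-Ras. Eno2, Vegfa, Ndrg1 and Pdk3 followed it less closely than Lox did, at r = 0.27, 0.13, -0.05 and 0.09 within models, and P4ha1 and Pgk1 did so at 0.39 and 0.37. Lox also correlated with the macrophage score, at r = 0.76, and with the luminal epithelial score, at r = -0.55. Without BRCA1-/-p53+/- 2 the class comparison gave 15 members higher and 3 lower, where 19% and 12.6% of all genes were, and the comparison with gland gave 12 higher and 10 lower, where 25.5% and 17.7% of all genes were. Of 9 basal/myoepithelial genes 1 was higher and 0 lower in basal-type tumors, where 15.9% and 12% of all genes were. Of 11 luminal epithelial genes 1 was higher and 1 lower. The basal/myoepithelial score averaged 1.02 ± 1.03 in MMTV-Wnt1, 0.24 ± 0.48 in C3(1)/Tag, 0.04 ± 0.83 in BRCA1-/-p53+/- and -0.08 ± 0.51 in p53-/- transplant. The luminal epithelial score averaged 0.44 ± 0.12 in p53-/- transplant, 0.48 ± 0.06 in MMTV-PymT and -1.10 ± 1.23 in BRCA1-/-p53+/-.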

How the data were processed

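Total RNA of 41 mouse mammary tumors and 5 normal glands was hybridised to Affymetrix arrays, 1 per tumor or gland. The authors collected scans in GCOS, computed GC-RMA values in Partek and deposited them as log2 values after removing probe sets with too few MAS5 present or marginal calls (versions not given in the sources used here). The deposited table held 18586 probe sets with no missing value. Arrays have no read depth, and the 4 to 7 arrays per group limit the precision. No scan date or other batch was given.

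Groups came from sample titles, and basal-type and luminal-type classes were those of the study. Per the methods each tumor came from its own mouse. A probe set was kept when it exceeded 4 on the log2 scale in at least 3 arrays (16154 probe sets), and genes were named from probe sets of a single gene, 9329 in all. Of the 16962 probe sets with 1 gene, 16941 matched the RefSeq gene table. All members with a probe set of their own passed the filter. Tests used limma 3.58.1 (lmFit, eBayes) with statmod 1.5.0 in R 4.3.3, and Benjamini-Hochberg adjustment over all genes within a contrast, at 0.05. The classes were compared as pooled tumors, and the other contrasts came from a fit of all 9 groups. The script was tested on simulated data with known differences. Figures used Python 3.11.15 with matplotlib 3.10.9.

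The members and all gene lists were chosen with earlier results of these data known, so no list is independent evidence. Named genes followed a fixed rule. Every group's values were given for 1 or 2 members per role, for the 5 members per direction with the largest differences among those called in each of both main contrasts, and for the 6 with the smallest F test p. For each pathway list the called gene with the largest difference in each direction was named. Correlations within models were computed after subtracting model means. Alternatives covered the filter, the scaling, the probe set, the variance model, model or replicate number as a block, FVB arrays alone and leaving out each array.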

Additional observations from a re-analysis of the deposited data

Results flagged for a closer look

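In groups of 4 to 7 arrays a value was marked when its gap to the nearest array was large for the range of its group (Dixon's test at 95%). Over the 33 members and 9 groups 22 of 297 tests (7.41%) marked a value, where chance marks about 1 in 20.

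MMTV-Wnt1 3 was marked for 5 genes, with low Aldoc (8.09) and Ldhb (6.82) and high Pgam1 (12.21), Adm (7.41) and Bnip3 (11.64). MMTV-H-Ras 4 was marked for 3, with high Pkm (13.45) and Ldha (13.05) and low Higd1a (9.19). BRCA1-/-p53+/- 2 was low for Egln3 (2.88) and Mif (11.16). Among p53-/- transplant tumors number 3 was high for Pkm (14.26) and Ddit4 (11.18).

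In MMTV-c-Myc, tumor 1 was high for Egln1 (9.61) and Vegfa (9.62), tumor 2 was high for Lox (9.72) and tumor 4 was low for Pgk1 (12.39). In MMTV-Her2/neu, tumor 1 was high for Pfkfb3 (4.98) and Hif1a (11.87) and tumor 4 for P4ha2 (4.11). Single marks fell on C3(1)/Tag 2 for Pgam1 (12.06), MMTV-PymT 5 for Ldhb (10.78) and normal gland 4 for P4ha2 (7.07).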

How the results depend on the processing

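Of the 19 members called between the classes, none passed with the model as a random block (0, consensus correlation 0.31), and 12 passed in FVB arrays alone. The FVB arrays hold C3(1)/Tag as their one basal-type model. In them 5 members were called in the same direction in every model against gland, where 3 were called in all 8 models over all arrays. The FVB arrays hold fewer models, so that condition is easier to meet, and the all-gene share of that fit was not counted. Under the other settings the class count lay between 17 and 20, the gland count, 21 as reported, between 18 and 22, and the F test count between 25 and 29. Leaving out each array gave 17 to 20, 17 to 22, 3 to 4 and 26 to 29 for these counts, in the order classes, gland, all models and F test, and 44 to 59 for the 52 pairs of member and model. Median centring moved all-gene calls from 2258 higher and 1597 lower to 1719 and 2058 against gland, and from 1485 and 1122 to 1257 and 1488 between the classes.

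With the replicate number as a block the counts were 20 between the classes, 20 against gland, 3, 28 and 58. After subtracting group means, same-numbered arrays of different groups correlated at a median of 0.0018, with 23 of 166 pairs over 0.1. Differently numbered arrays of different groups did so at a median of -0.0058, with 83 of 771 pairs over 0.1. Whether the numbers pair any samples was not tested. The block gained Bnip3 (adjusted p = 0.021) between the classes and Eno2 (0.043) against gland, and lost Pdk1 (0.0554) and Plod1 (0.0603) against gland.

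Direction changed only for members whose reported difference did not pass, except Pfkfb3, whose class difference was -0.28 with the other probe set. In FVB arrays alone the class differences of Hk2, Ldhb, Hif1a and Bnip3 became -0.26, 0.50, -0.097 and -0.59, and those of Ldha and Hif1a against gland -0.020 and -0.078. Other probe sets gave class differences of -0.026 for Pfkp, 0.094 for Aldoa, 0.23 for Pdk1 and -0.17 for Ero1a, and differences from gland of 0.40 for Lox and -0.24 for Vegfa. Median centring gave -0.000083 for Pgam1, -0.15 for Ldha and -0.11 for Hif1a against gland. The Pfkm class difference was 0.035 with the replicate block, 0.0096 with the random block and 0.026 with equal weights. Without 1 array it ran from -0.28 to 0.072, that of Mif from -0.10 to 0.083, and the differences from gland ran from -0.027 to 0.60 for Aldoc, -0.017 to 0.14 for Ldha and -0.056 to 0.28 for Hif1a. The cause was not tested for any of these.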
